A study of Mus musculus with 2 samples.

Results

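Striatal projection neuron genes are described here as a set of 10 of the 21896 genes of the series, namely Isl1, Six3, Ebf1, Ikzf1, Rarb, Meis2, Penk, Tac1, Drd1a and Drd2. The genes were chosen by symbol, with all transcripts of a symbol added together. RNA of the ventricular and subventricular zones (VZ–SVZ) dissected from the cortex of C57/BL6 embryos was sequenced at E13.5, with 1 library from Rcor2fl/fl embryos as the control and 1 library from Rcor2cko embryos. Embryos of both genotypes carried 2 floxed copies of Rcor2 and came from Rcor2fl/+NesCre parents. In the Rcor2cko embryos Nestin-driven Cre removed the floxed exons throughout the neural lineage, and thus not only in the cortex. The control's genotype as named holds no Cre, and the number of embryos that went into a library is not given in the sources used here. E15.5 was not analysed here.

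Striatal projection neurons are the GABAergic output neurons of the striatum. They are born from progenitors of the lateral ganglionic eminence (LGE), in the ventral telencephalon, next to the cortex, whose own progenitors give rise to glutamatergic neurons. Neurons of the direct pathway express the dopamine receptor Drd1a and the substance P precursor Tac1, and those of the indirect pathway express Drd2 and the enkephalin precursor Penk. Isl1 and Ebf1 are transcription factors of the direct pathway neurons, Six3 is one of the indirect pathway neurons, and Ikzf1, Rarb and Meis2 are regulators that act in the striatal lineage and in other tissues.

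Expression was given by the authors as FPKM, that is, fragments per kilobase of transcript and scaled to the number of mapped fragments of a library. Low FPKM values of genes with 1 transcript fell on steps that correspond to whole fragments, and these steps gave scaling totals of about 18840000 fragments for Rcor2fl/fl and 25480000 for Rcor2cko. Changes are log2 ratios of (FPKM + 0.1), Rcor2cko over Rcor2fl/fl, and a gene past 1.5-fold was counted as higher or lower. Where both FPKM values are above 0 but low, the added 0.1 understates the change. Where 1 of them is 0, the size of the change depends on the added 0.1. The bounds printed with FPKM values are those of the 95% FPKM intervals that the authors deposited. For genes with several transcripts in the Rcor2fl/fl library they were combined here from the deposited half-widths. With 1 library per genotype there is no replicate and no test, so that every statement compares these 2 libraries. Pairs of FPKM values are given with the control first. Rcor2 itself, with all exons counted, was at 90.6 and 55.7 FPKM. Xist was at 177 and 0.109 FPKM and the Y-linked Eif2s3y at 0 and 19.8 FPKM, so that the sex of the embryos cannot be told apart from genotype. In bulk RNA, more cells of a type and more RNA per cell cannot be told apart.

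Isl1, Six3 and Tac1 were listed at 0 in the control and were above 1 FPKM in Rcor2cko. Their promoters are shown because these 3 genes had the largest differences among the 10. Each window runs from 250 bases before to 50 bases after the RefSeq transcript start, 5′ to 3′ on the gene's strand, in the build GRCm38.p6, whose coordinates differ from those of the files. Capitals mark matches, on either strand, to CCAAT (the box bound by NF-Y, ATTGG on the other strand), CAGCTG (an E-box), TAATTA (a core bound by many homeodomain proteins), TGACAG (a core bound by Meis proteins) or CAGCACC (a part of the RE1 site of REST).
Isl1, chr13:116309639-116309938, minus strand: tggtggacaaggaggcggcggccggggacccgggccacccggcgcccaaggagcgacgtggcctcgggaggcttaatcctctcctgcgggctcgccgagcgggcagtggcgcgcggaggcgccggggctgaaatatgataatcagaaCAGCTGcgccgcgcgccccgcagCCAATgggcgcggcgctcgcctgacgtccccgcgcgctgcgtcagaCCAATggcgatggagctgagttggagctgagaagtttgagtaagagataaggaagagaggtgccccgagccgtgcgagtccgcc
Six3, chr17:85620584-85620883, plus strand: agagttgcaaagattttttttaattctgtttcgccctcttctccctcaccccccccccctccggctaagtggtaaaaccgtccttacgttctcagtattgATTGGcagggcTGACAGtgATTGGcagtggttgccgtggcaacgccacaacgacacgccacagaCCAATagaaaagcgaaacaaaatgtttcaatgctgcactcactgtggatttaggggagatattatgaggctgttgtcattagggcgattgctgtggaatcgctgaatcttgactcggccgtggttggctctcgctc
Tac1, chr6:7554811-7555110, plus strand: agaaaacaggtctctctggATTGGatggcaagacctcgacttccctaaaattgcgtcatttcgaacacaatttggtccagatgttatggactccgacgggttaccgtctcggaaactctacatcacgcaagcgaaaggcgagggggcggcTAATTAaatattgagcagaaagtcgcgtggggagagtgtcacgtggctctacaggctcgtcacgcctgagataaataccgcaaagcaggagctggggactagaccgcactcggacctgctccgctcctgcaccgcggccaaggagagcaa
No matches overlapped in these windows. The table of RefSeq windows used here gave 12 windows for 9 of the 10 genes, all but Penk, with Drd1a listed under the symbol Drd1. CCAAT was found in windows of Isl1, Six3, Tac1 and Meis2, and in 37.4% of all 32851 windows. CAGCTG was found in that of Isl1 (16.3% of all windows), TAATTA in that of Tac1 (5.29%), and TGACAG in those of Six3 and Rarb (19.2%). CAGCACC was in none of the 12 windows and in 7.14% of all windows. The Isl1 window was 69% G and C, against 50% for Six3 and 54% for Tac1.

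Of the 10 genes, 8 were higher in Rcor2cko, 0 were lower, and Meis2 and Drd1a lay within 1.5-fold. Of all 21896 genes, 5.88% were higher by this measure and 3.07% lower. The 10 genes had a median log2 change of 1.31, against 0 over all genes. The median was the same with the genes listed at 0 in the control set to their ratios to a floor of 3 fragments. It could not have moved, since these genes lay above the middle values by either measure. Apart from Meis2, the genes were low in both libraries, with highest values of 1.51 and 2.46 FPKM, and these 9 genes summed to 3.53 and 12.2 FPKM. Low genes pass 1.5-fold more often. Of the 2488 genes with a mean of 0.3 to under 2 FPKM over both libraries, 17.4% were higher by this measure, and of the 9 striatal genes in this range, 8 were. A filter that asked for 1 FPKM or more in either library, which left 11777 genes of which 3.79% were higher and 1.76% lower, was passed by 7 of the 10 genes. Because 5 of the 7 passed through the Rcor2cko library alone, nothing is drawn from their count. The 10 genes were chosen with results of these samples known, so that their direction is not independent evidence.

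**Figure D1:**
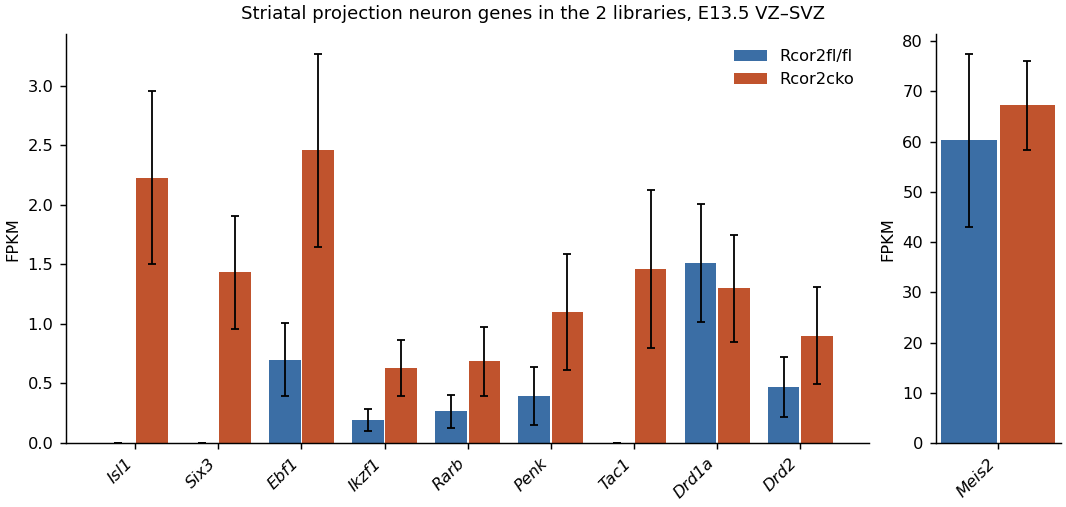
Bars give the FPKM (vertical axes, linear, from 0) of each gene in the Rcor2fl/fl library (blue) and the Rcor2cko library (red). Lines give the 95% FPKM intervals, combined from transcripts for Meis2 in the Rcor2fl/fl library, with Meis2 on an axis of its own. Isl1, Six3 and Tac1 have no bar in the Rcor2fl/fl library, Drd1a is at 1.51 and 1.3 FPKM, and Meis2 is at 60.3 and 67.2 FPKM.

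The order of the levels differed between the libraries. In the Rcor2fl/fl library Meis2 was highest, followed by Drd1a, Ebf1, Drd2, Penk, Rarb and Ikzf1, with Isl1, Six3 and Tac1 at 0. The 95% FPKM intervals of neighbours in this order overlapped from Ebf1 to Ikzf1, so that these 5 genes were not separated from their neighbours. In the Rcor2cko library Meis2 was again highest, and Ebf1, Isl1, Tac1, Six3, Drd1a, Penk, Drd2, Rarb and Ikzf1 followed, each with an interval that overlapped that of the next. Drd1a thus went from the second to the sixth place at nearly the same FPKM.

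Among the transcription factors, Isl1 is a LIM homeodomain protein that is needed for direct pathway neurons. It spans 117088478 to 117099896 on chromosome 13 of mm9, on the minus strand, and GENCODE vM1 gives it up to 6 exons. Isl1 was at 0 FPKM in the control and at 2.23 FPKM (1.5 to 2.96) in Rcor2cko, from 0 and 132 fragments. The Rcor2cko value lies above the depth limit of the control, since 3 fragments, the floor used here, correspond to 0.0683 FPKM for Isl1 in the Rcor2fl/fl library. With the Rcor2cko value taken as it stands, the level was 32.6-fold this floor, a log2 ratio of 5.03. The log2 change on FPKM + 0.1 was 4.54. With counting error in both libraries, the 95% counting interval of the log2 ratio (Clopper-Pearson, exact) began below 5.03, at 4.71. Fragment counts and floors cover counting error only.

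Six3, a homeodomain protein of the indirect pathway neurons that also acts in the early eye field and ventral forebrain, spans 86020174 to 86025531 on the plus strand of chromosome 17. It was at 0 FPKM and at 1.43 FPKM (0.959 to 1.91), from 0 and 127 fragments, with a log2 change of 3.94. The Rcor2cko level was 31.4-fold the floor of 3 fragments, a log2 ratio of 4.97, while the counting interval of the log2 ratio began lower, at 4.65. Its divergent noncoding neighbour Six3os1, which starts 1.42 kb from Six3 in the transcript models of the files, was at 0 and 1.53 FPKM. The files' models of Six3 and Six3os1 do not overlap. The eye-field genes Rax and Six6 were listed at 0 in both libraries, while Vax1, a homeobox gene of the ventral forebrain and optic stalk, was at 0.645 and 1.68 FPKM.

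Ebf1, a helix-loop-helix factor that guides the differentiation of direct pathway neurons, spans 44431636 to 44818674 on the plus strand of chromosome 11. It was measurable in both libraries, at 0.699 FPKM (0.393 to 1.0) and 2.46 FPKM (1.65 to 3.27), from 27 and 128 fragments, and the deposited intervals did not overlap. Its log2 change was 1.68, and without pseudocount the log2 ratio was 1.81, with a counting interval from 1.21 to 2.47.

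Ikzf1 (Ikaros), a zinc finger factor of lymphoid cells that is also expressed in the developing striatum, spans 11586216 to 11672929 on chromosome 11, plus strand. It was at 0.192 FPKM (0.10 to 0.284) and 0.633 FPKM (0.397 to 0.869), a log2 change of 1.33, and the intervals did not overlap. In the Rcor2fl/fl library all of it was assigned to the longer of its 2 transcripts, of 5163 nt, and with that length the values correspond to 18 and 80 fragments. Of 9 microglia and leukocyte genes, 3 were higher and 0 lower, against 5.88% and 3.07% of all genes. The 9 genes mark cells that could carry Ikzf1 and had a median log2 change of 0.25. Those higher were Csf1r, the receptor gene that microglia need (2.67 and 4.32 FPKM), and the complement genes C1qa (2.21 and 4.19 FPKM) and C1qc (4.14 and 6.3 FPKM). The leukocyte antigen gene Ptprc was at 0.200 and 0.210 FPKM and Laptm5 at 2.41 and 2.59 FPKM, both within 1.5-fold. The summed level of the 9 genes was 36.7 and 42.8 FPKM, of which Coro1a alone held 17.3 and 16.0 FPKM, so that the sum says little of the others. None of the 9 was at 0, and their part in the Ikzf1 difference was not tested.

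Rarb, a retinoic acid receptor enriched in the striatum, spans 17263354 to 17407724 on the minus strand of chromosome 14. It was at 0.267 FPKM (0.130 to 0.405) and 0.686 FPKM (0.398 to 0.975), from 13 and 45 fragments, a log2 change of 1.10. The deposited intervals overlapped by a narrow margin, while the counting interval of the log2 ratio, from 0.44 to 2.37, lay above 0. Rxrg, the striatal one of the retinoid X receptors, which pair with retinoic acid receptors, was at 0.0358 and 1.12 FPKM, and changed by 3.16. The other retinoid receptors differed less, with log2 changes of 0.53 for Rara, 0.13 for Rarg and 0.16 for Rxra, and Rxrb was at 20.0 FPKM in both libraries. Aldh1a3, a retinoic acid synthesis gene of the LGE, was listed at 0 in both libraries.

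Meis2, a homeodomain protein of the TALE class that is found in the LGE and in cortical progenitors and neurons, spans 115687000 to 115890794 on the minus strand of chromosome 2. It was by far the most abundant of the 10 genes, at 60.3 FPKM (43.1 to 77.5) and 67.2 FPKM (58.2 to 76.1). The log2 change was 0.16. The interval of Rcor2cko lay within that of the control, which was combined here from transcripts, so that the 2 widths are not alike. In the Rcor2fl/fl library, where the authors deposited transcripts, Meis2 was split over 6 RefSeq transcripts. The 4 transcripts from 1 start site held 57.7 FPKM, or 95.7% of the gene, and the 2 from another held 2.62 FPKM, or 4.35%. NM_001136072 was the highest, at 20.2 FPKM (8.97 to 31.4), followed by NM_001159567 at 17.9 FPKM (5.72 to 30.1), and their intervals overlapped. The Rcor2cko values are given per gene only, so that transcript use could not be compared between genotypes, nor could fragments be recovered for Meis2.

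**Figure D2:**
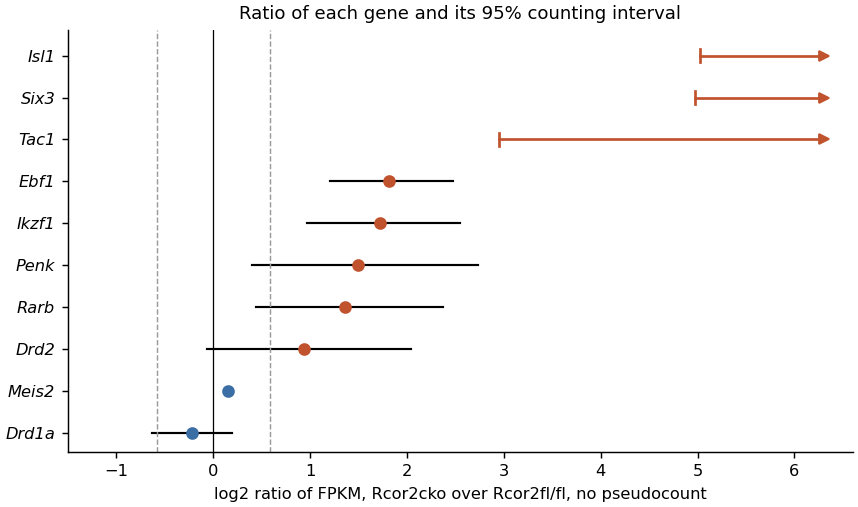
Points give the log2 ratio of FPKM (horizontal axis, no pseudocount) of each gene with FPKM above 0 in both libraries, red past 1.5-fold (dashed lines) and blue within, and black lines the 95% exact counting intervals, which Meis2 lacks. Arrows for Isl1, Six3 and Tac1, which were at 0 in the Rcor2fl/fl library, start at the ratio to the floor of 3 fragments. These starts lie above the lower ends of the counting intervals of the 3 genes. The intervals of Drd2 and Drd1a include 0.

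The peptide precursors were higher in the Rcor2cko library. Tac1 encodes the precursor of substance P and neurokinin A and spans 7505071 to 7512973 on the plus strand of chromosome 6. It was at 0 FPKM and 1.46 FPKM (0.801 to 2.12), from 0 and 31 fragments. Its transcript is short, at 1034 nt, so that 3 fragments correspond to 0.190 FPKM in the Rcor2fl/fl library. The Rcor2cko level was 7.70-fold this floor, a log2 ratio of 2.95, and the log2 change on FPKM + 0.1 was 3.96. The counting interval of the log2 ratio of Tac1 began below 2.95, at 2.56. Penk, which encodes the enkephalin precursor, spans 4060683 to 4065592 on the minus strand of chromosome 4. It was at 0.392 FPKM (0.150 to 0.635) and 1.10 FPKM (0.613 to 1.59), from 9 and 34 fragments, a log2 change of 1.29. The deposited intervals of Penk overlapped at their ends, and its counting interval ran from 0.40 to 2.74.

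The related precursor genes did not pass 1.5-fold. Pdyn, which encodes prodynorphin and is a later gene of direct pathway neurons, was listed at 0 in both libraries. Pnoc (0.343 and 0.440 FPKM), Pomc (0.849 and 1.12 FPKM) and Tac2 (2.40 and 2.21 FPKM) lay within 1.5-fold. The receptors for these peptides were low. The opioid receptor genes Oprm1, Oprd1 and Oprk1 were all under 0.1 FPKM in both libraries, and the tachykinin receptor genes Tacr1 and Tacr3 were at 0.209 and 0.325 FPKM and at 0.104 and 0.209 FPKM.

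The dopamine receptors were the least changed among the low genes. Drd1a, which spans 54146553 to 54151027 on the minus strand of chromosome 13, was already at 1.51 FPKM (1.01 to 2.01) in the control and was at 1.3 FPKM (0.851 to 1.74) in Rcor2cko, from 95 and 110 fragments. Its log2 change of -0.21 was the lowest of the 10 genes and the only negative one. The counting interval, from -0.63 to 0.19, includes 0 and leaves no room for a rise of 1.5-fold on counting error alone. Drd2, which spans 49148767 to 49215319 on the plus strand of chromosome 9, was at 0.470 FPKM (0.218 to 0.722) and 0.902 FPKM (0.495 to 1.31), from 12 and 31 fragments. Its log2 change of 0.81 passed 1.5-fold, but the counting interval, from -0.06 to 2.04, includes 0, and the deposited intervals overlapped. No difference in Drd2 was detectable at this depth. The other dopamine receptor genes Drd3, Drd4 and Drd5 were each under 0.2 FPKM in both libraries, on at most 5 fragments.

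Direct and indirect pathway genes were both among those that were higher. Of the direct pathway genes, Isl1, Tac1 and Ebf1 were past 1.5-fold and Drd1a was not. Of the indirect pathway genes, Six3, Penk and Drd2 were past 1.5-fold, Drd2 with an interval that includes 0. Fragments could be recovered for the 8 genes with a single transcript. Of these 8, 6 had a counting interval above 0, against 12.0% of 12093 genes with recovered fragments, and 4 had one above 1.5-fold, against 1.71%. For Ikzf1, with its length assumed, the interval ran from 0.97 to 2.54. Over all 10 genes, 5 (Isl1, Six3, Ebf1, Ikzf1 and Tac1) were higher with deposited intervals that did not overlap, against 1.88% of all genes.

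Genes at 0 in the control and at 1 FPKM or more in Rcor2cko were examined because Isl1 and Six3 were known to be among them. Their small share is thus not independent evidence. There were 12 such genes, 0.0548% of all, of which 3 were Isl1, Six3 and Tac1. Of the other 9, 5 had transcripts under 250 nt, among them Mir715, Snora15 and Snora69, at which FPKM is poorly defined. The remaining 4 were Gsx2, the homeobox gene that specifies LGE progenitors (1.64 FPKM), Six3os1 (1.53 FPKM), the choroid plexus gene Ttr (57.8 FPKM) and Eif2s3y. In the opposite direction, 5 genes were at 0 in the Rcor2cko library and at or above 1 FPKM in the Rcor2fl/fl library.

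**Figure D3:**
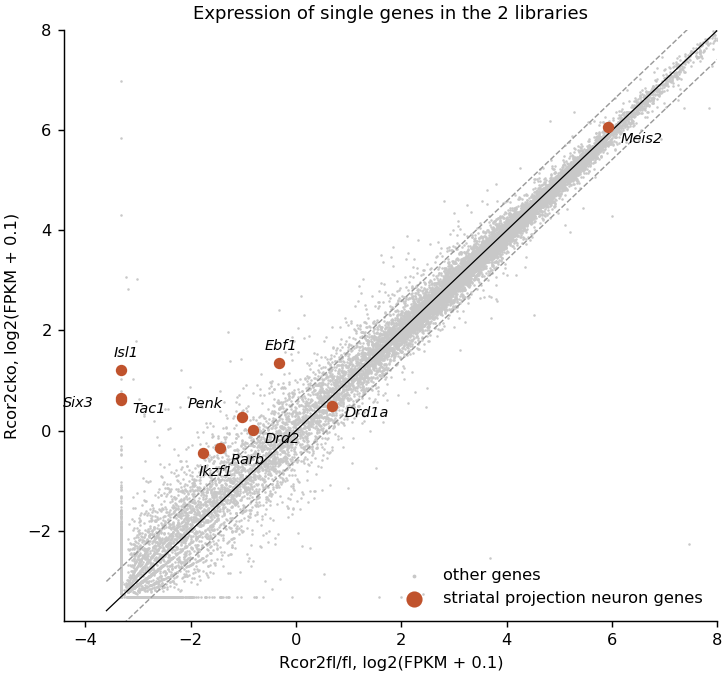
Each point is a gene, with log2(FPKM + 0.1) in the Rcor2fl/fl library on the horizontal axis and in the Rcor2cko library on the vertical axis, the solid line marking equal values and the dashed lines 1.5-fold. The 10 striatal projection neuron genes (red) lie above the upper dashed line except Meis2 and Drd1a, and Isl1, Six3 and Tac1 lie on the left edge formed by genes at 0 in the Rcor2fl/fl library.

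The closest relatives of the 10 genes passed 1.5-fold about as often as all genes did. Of 20 paralogues, 1 was higher and 1 lower, against 5.88% and 3.07% of all genes. Only 10 of the 20 reached 1 FPKM in either library, so that a change in the others was harder to see. Meis1 was higher, at 1.37 and 2.66 FPKM (log2 change 0.91), and Ebf3, which is also a gene of Cajal-Retzius cells, was lower, at 2.36 and 1.13 FPKM (log2 change -1.0). Ebf2 and Ebf4 changed by -0.10 and 0.23, so that Ebf1 was the one Ebf gene past 1.5-fold on the higher side. Isl2 and Six6, the nearest relatives of Isl1 and Six3 on the list, were under 0.1 FPKM or at 0 in both libraries. Ikzf2, Ikzf4 and Ikzf5 changed by 0.10, 0.36 and 0.03, and Ikzf3 was listed at 0 in both libraries. Meis3 was at 23.7 and 24.7 FPKM. Of the Pbx genes, whose products bind DNA together with Meis proteins, Pbx3 was higher, at 3.09 and 7.48 FPKM (log2 change 1.25), while Pbx2 and Pbx4 changed by 0.06 and -0.56. Of all 22 genes whose products bind to, receive from or act downstream of those of the 10, 4 were higher and 1 was lower. Their median log2 change was 0.21. The higher ones were Rxrg, Pbx3, Gnal and Tacr3, the last on 7 and 19 fragments with a counting interval, from -0.31 to 2.50, that includes 0. The lower one was Tle4, a Groucho corepressor gene, at 22.3 and 14.5 FPKM. Ldb1, which encodes the adaptor of LIM homeodomain proteins such as Isl1, was at 101 and 92.9 FPKM.

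Of the 20 nearest genes on either side of the 10 loci, 17 lay within 1.5-fold and 3 were higher, against 5.88% higher over all genes. Of the 17, 7 were under 1 FPKM in both libraries. The 3 were Six3os1, Parp8, which lies 543.7 kb from Isl1 and went from 5.25 to 8.60 FPKM, and Sdr16c6 next to Penk, which was at 0 and 0.0802 FPKM. Top2b, whose locus lies within 1 kb of that of Rarb, was at 91.7 and 93.8 FPKM, and Sfxn1, 16.2 kb from Drd1a, was at 19.4 and 19.2 FPKM.

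Other genes of the striatum were examined with a list of 35, all of them in the files. Without a filter 17 were more than 1.5-fold higher and 2 lower, against 5.88% and 3.07% of all genes, with a median log2 change of 0.53. Of the 27 that passed the filter, 14 were higher and 1 was lower, against 3.79% and 1.76% of all 11777 genes that passed it. The median of the 27 was 0.59, against -0.03 over those 11777 genes. This list too was chosen with results of these samples known, so that its counts are not independent evidence of direction. Among the largest differences, next to Six3os1 and Rxrg, was that of Zfp503 (Nolz1), a zinc finger gene of LGE precursors, at 0.0792 and 1.24 FPKM (log2 change 2.90). Nrgn, which encodes the calmodulin-binding neurogranin, was at 1.01 and 4.89 FPKM (log2 change 2.16). The GABA synthesis genes Gad1 (4.65 and 10.7 FPKM) and Gad2 (2.33 and 8.10 FPKM) changed by 1.18 and 1.76, and Sp9, a zinc finger gene needed for indirect pathway neurons, by 1.37. Adora2a, the adenosine receptor gene of the indirect pathway, was at 0.907 and 1.85 FPKM (log2 change 0.95), and Chrm4, a muscarinic receptor gene of the direct pathway, at 0.124 and 0.336 FPKM (log2 change 0.96). Chrm4 rested on 6 and 22 fragments, and Gpr6, an indirect pathway gene, on 3 fragments and 1 fragment.

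Genes of the striatum that were more abundant differed less. Among the 16 whose mean was 5 FPKM or more, 5 were higher and 1 was lower, with a median log2 change of 0.26, against 1.19% higher and 0.679% lower among all genes of that level. Of the 13 genes with a mean of 0.3 to under 5 FPKM, 11 were higher and 0 lower, with a median of 1.37, against 12.4% higher among all such genes. Bcl11b (Ctip2), a zinc finger gene of striatal and of deep-layer cortical neurons, was at 35.0 and 42.0 FPKM, and Foxp1, which both kinds of neuron express, at 6.66 and 7.86 FPKM. Ppp1r1b, which encodes the dopamine-regulated phosphatase inhibitor DARPP-32, was at 14.3 and 17.1 FPKM (log2 change 0.26). The phosphodiesterase genes Pde10a and Pde1b changed by 0.02 and -0.06, and the less abundant Rgs9, a regulator of dopamine receptor signalling, by -0.13. Gnal, the G protein subunit that couples dopamine receptors to adenylyl cyclase in the striatum, was higher, at 6.59 and 11.6 FPKM (log2 change 0.80), and the cyclase gene Adcy5 changed by 0.28. Zfp521, a zinc finger gene, was lower, at 14.0 and 5.94 FPKM. Its log2 change was -1.22, and the counting interval ran from -1.35 to -1.12.

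**Figure D4:**
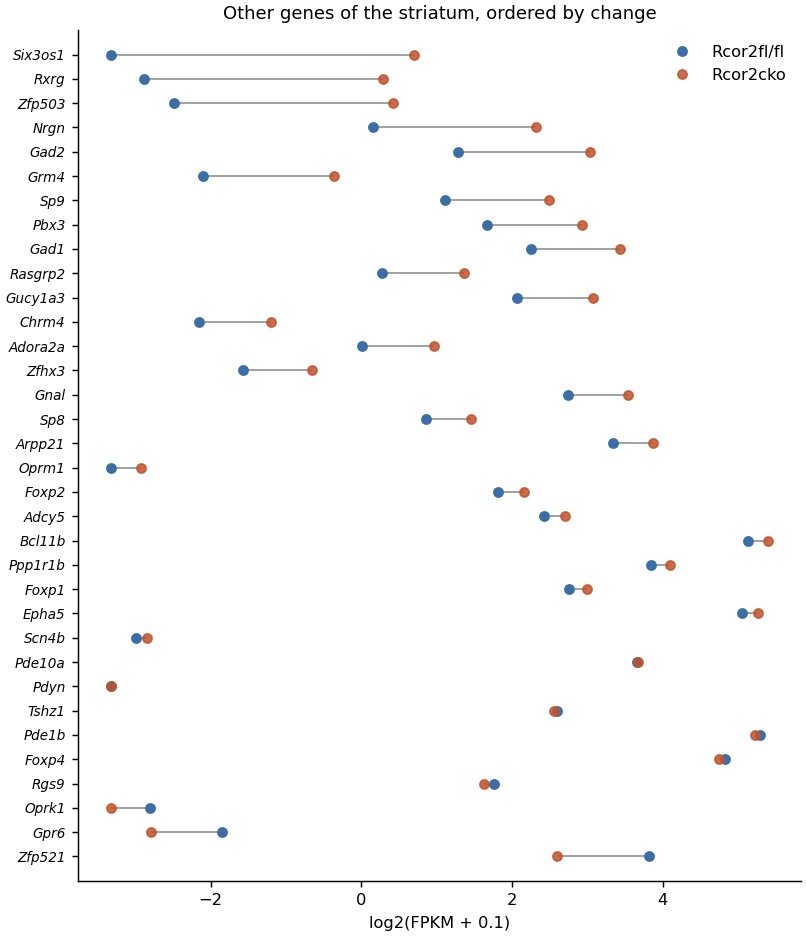
Each row is 1 of the genes of the striatum other than the 10, with log2(FPKM + 0.1) on the horizontal axis for the Rcor2fl/fl library (blue) and the Rcor2cko library (red). The gaps are widest at the top, for Six3os1, Rxrg and Zfp503, and close to 0 for genes such as Pde10a and Tshz1, while Zfp521 at the bottom is lower in the Rcor2cko library.

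Progenitor genes of the LGE moved with the striatal projection neuron genes. Of 8 such genes, among them Gsx2, Dlx1, Dlx2 and Dlx5, 7 were higher, with a median log2 change of 1.65 over the 8. They summed to 20.5 and 60.6 FPKM. Over all 21896 genes without a filter, 5.88% were higher and 3.07% lower. In the Rcor2fl/fl library Gsx1 and Gsx2 were at 0. Of 6 markers of the medial ganglionic eminence, 3 were higher and 0 lower. Nkx2-1 was at 0.128 and 0.190 FPKM, Lhx8 at 0 and 0.0221 FPKM and Lhx6 at 10.4 and 10.7 FPKM, while Sst was higher, at 6.95 and 24.1 FPKM. Of 8 genes of the dorsal cortex, 0 were higher and Emx2 was lower, and all 8 were above 5 FPKM in both libraries. Their median log2 change was -0.12, near the -0.12 of 11 housekeeping genes. Single cortical genes ran from -0.62 for Emx2 and -0.34 for Emx1 to 0.22 for Tbr1, and 2 of the 8 changes were positive.

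Markers of other tissues also differed between the libraries. Of 7 choroid plexus genes, 5 were higher and 0 lower, against 5.88% and 3.07% of all genes. Their sum went from 2.38 to 63.6 FPKM, most of it Ttr, which was at 0 in the Rcor2fl/fl library. All 5 endothelial genes were within 1.5-fold (median log2 change 0.12), as were all 6 erythroid genes (-0.14). Of 4 meningeal genes, all under 1 FPKM, 2 were higher and 1 was lower, and they summed to 1.28 and 1.33 FPKM. Whether more ventral or medial tissue in the Rcor2cko dissection has a part in the difference of the striatal genes was not tested.

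**Figure D5:**
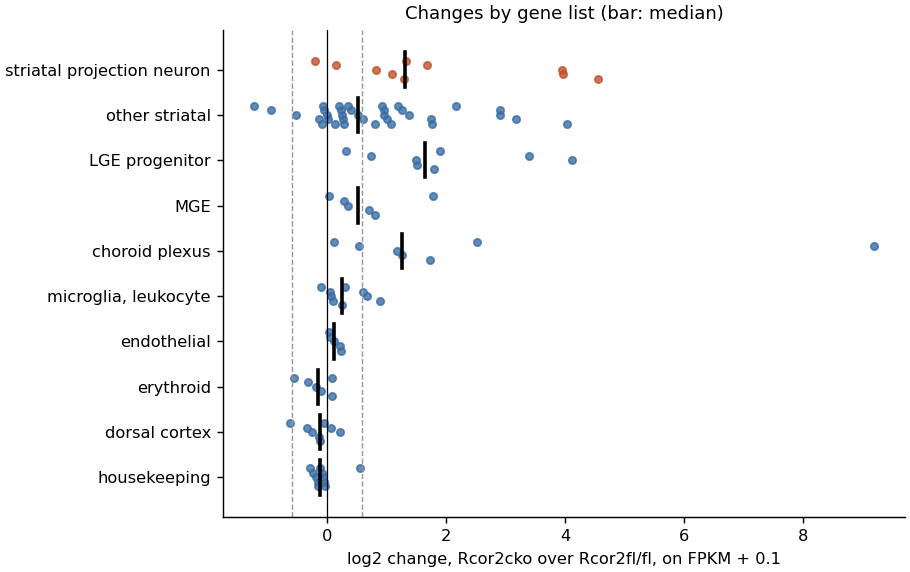
Each point is the log2 change of a gene on FPKM + 0.1 (horizontal axis), grouped by gene list, with a black bar at the median and dashed lines at 1.5-fold (LGE and MGE, lateral and medial ganglionic eminence). The striatal projection neuron genes (red, median 1.31) and the LGE progenitor genes (median 1.65) lie mostly to the right of the line. The dorsal cortex and housekeeping genes have medians slightly below 0, with Emx2 of the dorsal cortex genes past 1.5-fold on the lower side.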

How the data were processed

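RNA of the E13.5 cortical VZ–SVZ was measured in 1 Rcor2fl/fl and 1 Rcor2cko library. The authors made stranded mRNA libraries, mapped the reads to mm9 with TopHat and deposited Cufflinks FPKM values with 95% FPKM intervals, per RefSeq transcript (27641 rows) for Rcor2fl/fl and per gene (21896 rows) for Rcor2cko. Per the labels' processing notes, TopHat 1.3.3 and Cufflinks 1.2.0 were used, while the methods name a later TopHat release. Whether counting used strand is not given in the sources used here. Transcript lengths were taken from the deposited file.

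FPKM was summed over the transcripts of a gene, and interval half-widths were added in quadrature. Libraries were compared on log2(FPKM + 0.1) with no further scaling and a threshold of 1.5-fold. Where a gene had a single transcript of 1000 nt or more (14350 genes), fragments were recovered from FPKM, the length less a fitted offset (194.1 and 200.9 nt) and the scaling total. Of values up to 100 fragments, 99.3% of 4019 and 99.4% of 3948 lay within 0.1 of a whole number. The ratio intervals are 95% Clopper-Pearson intervals of the fragment share, and the steps were tested on simulated data. No test or p-value was computed, since there is 1 library per genotype.

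The 10 genes and all lists were chosen with earlier results of these data known. The genes named are the 10, their paralogues and partners, the 8 largest rises and all falls among other striatal genes of at least 1 FPKM, and the genes nearest to the 10. Some genes that this rule names are not reported here. Others were named with their values seen, and so was the range of 0.3 to under 2 FPKM chosen. Positions are the files' mm9 loci counted from 1, with strands from GENCODE vM1 on NCBIM37, and all 10 genes overlapped the gene of that symbol. Promoters are RefSeq windows on GRCm38.p6. Alternatives were other pseudocounts, scalings, filters and thresholds, and the highest transcript per gene. Computations used numpy 2.4.6, pandas 2.3.3 and scipy 1.17.1 under Python 3.11.15, and plots matplotlib 3.10.9.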

Additional observations from a re-analysis of the deposited data

How the results depend on the processing

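With the filter of 1 FPKM in either library, 5 of 7 striatal projection neuron genes were higher, against 3.79% of all genes that passed it. These 5 passed through the Rcor2cko library alone, so that nothing is drawn from their count or from the median of the 7. Without a filter 8 of 10 were higher, as were 8 of 9 with a mean of 0.3 to under 2 FPKM, a range chosen after seeing the data. With at least 1 FPKM in both libraries only Meis2 and Drd1a were left, 0 of 2 were higher, and the median log2 change went from 1.68 to -0.025, since that filter removes every gene at 0 or under 1 FPKM in the Rcor2fl/fl library. Of the other striatal genes 14 were higher and 1 lower, 9 were higher with at least 1 FPKM in both libraries, where fewer genes enter, and 2 were lower without a filter, where more enter.

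Of 60 further values of single genes, 53 stayed within the range given by the deposited intervals and 7 did not. These were Isl1, Six3 and Tac1 with pseudocounts of 1 and 0.01 (Isl1 at 1.69 and 7.81), and Meis2, which went to 1.73 with its highest transcript in place of the sum, a setting that lowers the Rcor2fl/fl library only. No gene changed sign. With a pseudocount of 1, Ikzf1 (0.45), Rarb (0.41) and Drd2 (0.37) were within 1.5-fold. No paired analysis was possible because each genotype has only 1 library. Depth limits Tac1, Drd2, Penk and Rarb most, with at most 45 fragments in a library.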

Other observations

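The genes whose levels over the 2 libraries were most like those of a striatal projection neuron gene were found by Euclidean distance on log2(FPKM + 0.1), which with only 2 libraries says no more than that both values are close. For Six3 the nearest genes were Tac1, at a distance of 0.026, Six3os1 at 0.088 and Gsx2 at 0.18, and for Tac1 they were Six3, Six3os1 and Gsx2. For Isl1 the nearest were the short RNAs Snora23 and Scarna6 and, at a distance of 0.28, Sycp1, a gene of meiotic chromosomes, at 0.0164 and 1.95 FPKM. The nearest to Penk were Slc24a2, Hist1h2bg and Cxcl14, and to Ebf1 S100a1, Fxyd7 and Chchd10. Meis2 lay closest to Hes6 (61.3 and 67.4 FPKM), Hmgn3 and Tia1, and Drd1a to Dnajc12, Gnb1l and Plk3.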
